A study of Mus musculus with 3 samples.

Results

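The integrins and leukocyte adhesion molecules are 39 genes of 26840 with a symbol on the array, chosen by gene name and without regard to their values. They are read by 88 of the 56605 gene probes. Integrins are surface receptors made of an α and a β chain, which bind matrix proteins or counter-receptors on other cells and are switched on from inside the cell by talin and kindlin. On macrophages and other leukocytes, the β2 integrins bind ligands of the immunoglobulin superfamily such as ICAM-1, α4 integrins bind VCAM-1 and fibronectin, and selectin ligands support the first contact with the vessel wall. Together they carry leukocytes out of the blood, and they hold macrophages to matrix, to other cells and to particles that are taken up.

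RNA came from RAW 264.7 cells, a mouse macrophage line transformed by Abelson leukemia virus, plated at 500000 cells per well in 12-well plates. The cells received LPS at 50 ng/mL alone (LPS), or after 24 h with *L. rhamnosus* CRL1505 (CRL1505 + LPS) or *L. plantarum* CRL1506 (CRL1506 + LPS) at 50000000 cells/mL, with the bacteria washed away before LPS. LPS, the TLR4 agonist, was therefore common to all groups, for 12 h by the design text and for 3 h by the descriptions of the samples. Each group was 1 one-colour Agilent array, non-stimulated cells were not analysed here, and RAW cells, as a single line, stand for 1 genetic background.

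Without replicates no test was possible, and every difference below is between 2 arrays. The arrays of LPS and CRL1506 + LPS shared a slide and a scan run, and that of CRL1505 + LPS had its own, so for comparisons with CRL1505 + LPS strain and slide cannot be told apart. The 75th percentile of signal was 517.0 for CRL1505 + LPS against 743.1 for LPS and 697.9 for CRL1506 + LPS, and 48.5%, 54.5% and 55.3% of gene spots were well above background. No gene spot was saturated. All 15 macrophage markers measured were well above background on every array, with a summed level of 711716, 910823 and 646616 on the LPS, CRL1505 + LPS and CRL1506 + LPS arrays, and 658168, 645590 and 538976 without *Marco*, which alone was at 53548, 265233 and 107640. The ratio over LPS was below 0 for 7 of the 15 with CRL1505 and for 9 with CRL1506. Of the markers of other cells, 5 of 7 T cell markers and 3 of 6 B cell markers were well above background on every array. The same held for 1 of 6 platelet and megakaryocyte markers, *Pf4*, at 191210, 115981 and 119147 in the same order of arrays. For endothelial, epithelial and fibroblast markers it was 0 of 6 each. On no array were 6 of the epithelial, 3 of the fibroblast and 0 of the endothelial markers well above background, counting markers that failed on all arrays. The part of these markers in the results was not tested. Since RNA was taken from the whole culture, fewer cells that express a gene and less RNA per cell cannot be told apart.

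Levels are given as scaled intensity, the processed signal after each array was shifted to the same 75th percentile (644.8 on this scale), in the order LPS, CRL1505 + LPS, CRL1506 + LPS. Levels of different genes are not compared, because probes differ in brightness. Ratios are log2 ratios of scaled intensity. As a yardstick of technical spread, the median SD of the log2 ratio was 0.228, 0.215 and 0.322 between probes of a gene for CRL1505 + LPS over LPS, CRL1506 + LPS over LPS and CRL1505 + LPS over CRL1506 + LPS, and it was 0.048, 0.043 and 0.047 over repeated spots of a probe. Neither covers biological variation.

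Since several results turn on which probe was read, stretches of 30 bases of such probes are shown first. *Itga6* codes for the α6 chain of laminin receptors. Its brightest probe belongs to an Ensembl transcript (ENSMUST00000139760, mm9 chr2:71690633-71690692), and its 2 probes for the RefSeq mRNA NM_008397 lie at chr2:71694756-71694815 and chr2:71696151-71696210, all on the plus strand. *Icam1*, for the ligand of the β2 integrins, has 2 probes for NM_010493 on the plus strand, at chr9:20833186-20833245 and chr9:20832290-20832349. *Itgb7*, for the β7 chain that pairs with α4 or αE, has a bright probe for the predicted transcript XM_017316440 (minus strand, chr15:102061127-102061186) and a dim one for NM_013566 (minus strand, chr15:102046450-102046509). The bright probe of *Itgam*, for the αM chain of Mac-1, is for NM_001082960 (plus strand, chr7:135261755-135261814). For *Itgb7* XM_017316440 and *Itgam* the stretch shown starts at a dinucleotide repeat, in capitals; for the others it is the 3′ end of the probe, with a polyadenylation signal (AATAAA or ATTAAA) in capitals where there was a match.
Itga6 ENSMUST00000139760: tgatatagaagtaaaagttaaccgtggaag
Itga6 NM_008397, first probe: gttgttgttctgaccttacttatttactgc
Itga6 NM_008397, other probe: atttgataggtttttatactaactagcatt
Icam1 NM_010493, bright probe: agaaacctttcctttgaatcAATAAAgttt
Icam1 NM_010493, dim probe: tcaggatatacaagttacagaaggctcagg
Itgb7 XM_017316440: TGTGTGTGTGTGTGTGtcatgattagtcac
Itgb7 NM_013566: gccattcccaccacacgaagggctggtcct
Itgam NM_001082960: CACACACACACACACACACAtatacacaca

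A dinucleotide repeat of at least 6 units was found in 2 of the 88 probes, both shown above, and in 0.422% of all 56605 gene probes. A polyadenylation signal was found in 10 of the 88 probes (11.4%) and in 13.4% of all gene probes. Such a signal marks the 3′ end of an mRNA, and of the *Icam1* probes only the bright one carried it. Whether it bears on the brightness of a probe was not tested.

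Of the 39 genes, 28 were well above background on all 3 arrays, beside 13167 of the 26840 genes with a symbol. Another 3 (*Itga7*, *Epcam* and *Amigo1*) were so on 1 or 2. The other 8 did not clear the background on any array and have no ratio. They were *Itga1*, *Itga2* and *Itga8*, which code for α chains of collagen and matrix receptors, *Itgae*, for the αE chain of intraepithelial lymphocytes, *Itgb3*, for the β3 chain of platelets and osteoclasts, *Itgb8*, for a chain that activates TGF-β, *Vcam1*, for an endothelial ligand of α4 integrins, and *Selp*, for the selectin of platelets and endothelium. These are read from the brightest probe of the gene among those without an outlier spot. For *Itga1* this rule passed over a probe well above background on the 2 lactobacilli arrays, with an outlier spot on CRL1506 + LPS. That probe was at 25.1 with LPS and 68.3 with CRL1505 + LPS, a bound of 1.24, which is past 2-fold higher.

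**Figure D1:**
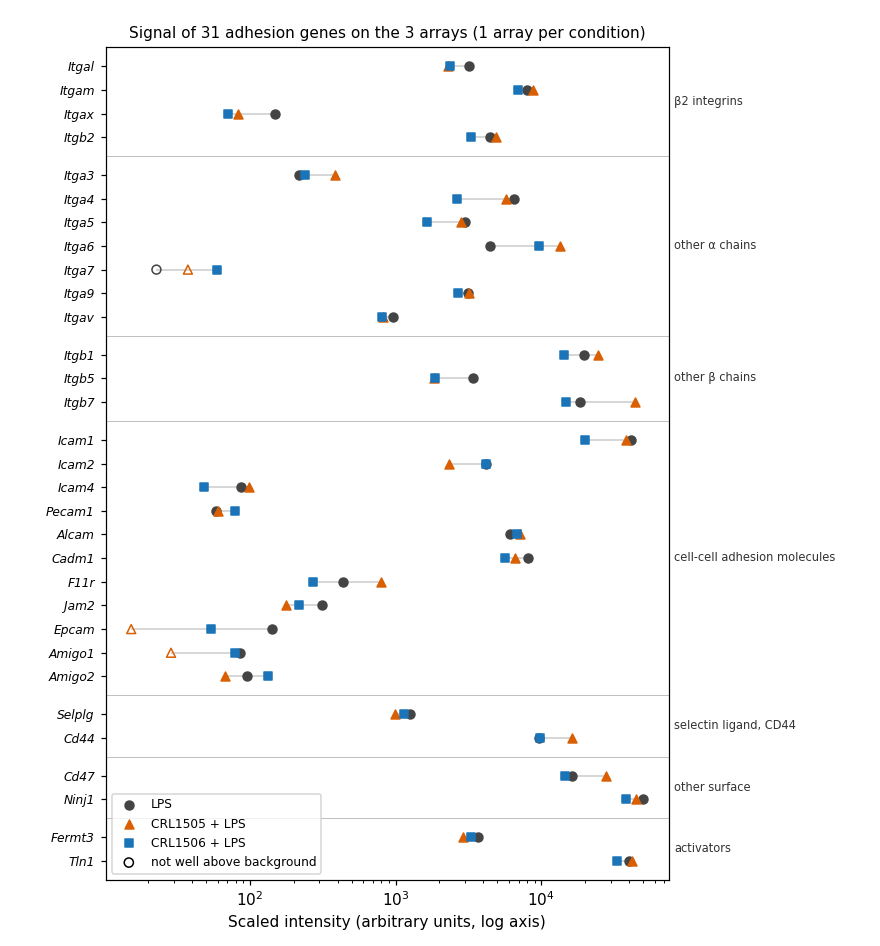
Scaled intensity (log axis, arbitrary units) of the 31 genes well above background on at least 1 array, by role, with 1 point per array; open symbols are not well above background. For most genes the 3 points lie close together, and *Itga6*, *Itgb7*, *F11r*, *Itga4*, *Itga7*, *Amigo1* and *Epcam* are spread out.

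With CRL1505, 2 of the 30 genes that could be compared were at least 2-fold higher than with LPS alone (*Itga6* and *Itgb7*, 6.67%, against 9.93% of all genes compared), and 2 were at least 2-fold lower (*Epcam* and *Amigo1*, 6.67%, against 8.41%). Together 13.3% went past 2-fold, against 18.3% of all genes. With CRL1506, 2 of 31 were at least 2-fold higher (*Itga6* and *Itga7*, 6.45%, against 5.67% of all genes), and 4 were at least 2-fold lower (*Itga4*, *Itgax*, *Icam1* and *Epcam*, 12.9%, against 3.53%), together 19.4% against 9.20%. *Itga6* was the 1 gene past 2-fold higher with both strains, by its brightest probe alone. Its RefSeq probes read below 0 with both (−0.76 and −0.98 for the first of them). The brightest probe was chosen by the mean over the 3 arrays, so its high lactobacilli values entered the choice. On the LPS array the first RefSeq probe was brighter (4822 against 4438). *Epcam* was the 1 gene past 2-fold lower with both strains, and no gene went past 2-fold in opposite directions. The strain comparisons share the LPS array.

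The median log2 ratio over the genes compared was −0.09 with CRL1505, against 0.01 for all genes, and −0.26 with CRL1506, against −0.06 for all genes. With CRL1506, 23 of 31 genes had a ratio below 0 (74.2%), against 57.3% of all genes. All 23 stayed below 0 in each of 8 scalings. The 8 were the median shift, quantile normalization, cyclic loess, detected probes, spike-in probes, normexp, the deposited table and removal of a GC trend. The main setting was not counted among the 8. With CRL1505, 16 of 30 were below 0 (53.3%, against 49.3% of all genes), and 11 stayed so in all 8 scalings. The 11 include *Epcam* and *Amigo1*, which were bounds, with a sign set by detection that no scaling could change. The SD of the ratios of genes measured on all arrays was 0.63 with CRL1505 and 0.52 with CRL1506, against 0.74 and 0.52 for all such genes. Scaling by the array median moved the median of all genes measured on both arrays to 0.35 with CRL1505 and −0.26 with CRL1506, and spike-in scaling moved it to −0.57 and −0.18, against 0.06 and −0.06 in the main setting. With CRL1506 the highest such median over the 8 scalings was 0.02, so a ratio below 0 had little room to change sign. Counts of stable signs therefore cannot be compared between the strains, and the share of all genes with a stable sign was not computed.

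**Figure D2:**
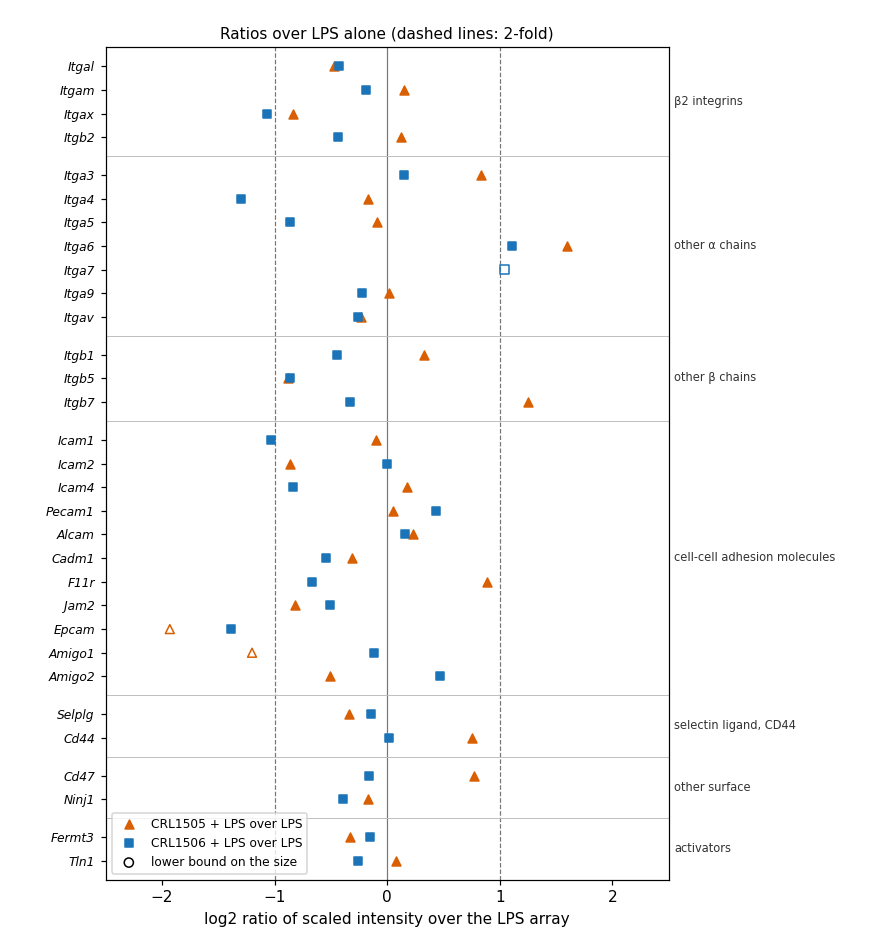
Log2 ratio over the LPS array for each gene, with CRL1505 (triangles) and CRL1506 (squares); dashed lines mark 2-fold, and open symbols are lower bounds on the size of a difference. With CRL1506 23 of 31 points lie left of 0 (74.2%, against 57.3% of all genes), and with CRL1505 16 of 30 (53.3%, against 49.3%).

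The β2 integrins are the leukocyte-specific family, in which the β2 chain (*Itgb2*) pairs with αL in LFA-1 (*Itgal*), αM in Mac-1 (*Itgam*) and αX (*Itgax*). With CRL1506 all 4 read lower than with LPS alone, in each of the 8 scalings, beside 57.3% of all genes in the main setting. A ratio below 0 with CRL1506 had little room to change sign over these scalings. For *Itgam* the ratio of the brightest probe was smaller than the spread between probes of a gene (0.215). With CRL1505 *Itgal* and *Itgax* read lower in each of the 8 scalings, beside 49.3% of all genes in the main setting. *Itgb2* was at 4461, 4859 and 3298, a log2 ratio of 0.12 with CRL1505, which turned negative under spike-in scaling, and −0.44 with CRL1506. *Itgal* was at 3202, 2304 and 2376, so both lactobacilli arrays lay below LPS by nearly the same amount, −0.47 and −0.43. Its other 2 probes, for transcripts AK154115 and ENSMUST00000120857 with overlapping positions, gave −1.22 and −1.01 with CRL1505 and −0.25 and −0.17 with CRL1506. All 3 *Itgal* probes were thus below 0 with both strains, while their sizes differed.

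*Itgax*, a marker of dendritic cells and of some macrophages, was dim, at 149, 83.2 and 71.0, and lowest with CRL1506 (log2 ratio −1.07, 2.10-fold lower). With CRL1505 its ratio was −0.84. It was past 2-fold lower with CRL1506 in 5 of 8 scalings, and its other 2 probes were not well above background. *Itgam* was at 7936, 8827 and 6939 by its repeat-bearing probe (log2 ratios 0.15 and −0.19) and at 347, 213 and 260 by the probe for NM_008401 (−0.71 and −0.42). The 2 *Itgam* probes therefore disagreed in sign with CRL1505, and both read lower with CRL1506. The genes for αL, αM and αX lie on chromosome 7, with the probes used for *Itgam* and *Itgax* 32237 bases apart on mm9.

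Among the other α chains, *Itga4* was lowest with CRL1506 by its brightest probe. It codes for the α4 chain of VLA-4, which binds VCAM-1 and fibronectin, and was at 6455, 5756 and 2621. LPS and CRL1505 + LPS lay close together (log2 ratio −0.17), and CRL1506 + LPS was 2.46-fold lower than LPS (−1.30), past 2-fold in all 8 scalings, with the smallest difference at −1.21. The second RefSeq probe of *Itga4*, at 171, 99.4 and 90.3, gave −0.78 with CRL1505 and −0.92 with CRL1506. Dim probes for Ensembl transcripts went the other way with CRL1506, at 0.39 for ENSMUST00000155105 and 1.26 for ENSMUST00000141094. The lower *Itga4* signal with CRL1506 thus holds for both RefSeq probes and not for the measured probes of other transcripts.

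*Itga5*, for the α5 chain of the main fibronectin receptor, followed the same order, at 3013, 2825 and 1655, with a ratio of −0.09 with CRL1505 and −0.86 with CRL1506. *Itga3*, for the α3 chain of a laminin receptor, was at 216, 385 and 239, and was highest with CRL1505 (0.83, against 0.15 with CRL1506). Its other RefSeq probe was at 33.1, 14.0 and 27.2, well above background only with LPS and lowest with CRL1505, and the mean over both probes gave −0.21 with CRL1505. *Itga9* was at 3135, 3178 and 2700 (0.02 and −0.22, and −0.01 and −0.50 by its second probe), and *Itgav*, for the αv chain of vitronectin receptors, at 962, 817 and 801 (−0.23 and −0.26). Except for the second *Itga9* probe with CRL1506, these ratios were close to the spread between probes of a gene or below it. *Itga7*, for another laminin receptor chain, was well above background only with CRL1506, at 59.6 against 22.8 for LPS and 37.5 for CRL1505 + LPS, which puts it at least 2.06-fold higher than LPS; 2 of 8 scalings kept this bound past 2-fold.

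*Itga6* depended on the probe, and on the LPS array alone its first RefSeq probe was brighter than the probe of the Ensembl transcript. By the Ensembl transcript it was at 4438, 13466 and 9584, which is 3.03-fold higher with CRL1505 (log2 ratio 1.60) and 2.16-fold higher with CRL1506 (1.11). By the first RefSeq probe it was at 4822, 2851 and 2445 (−0.76 and −0.98), and by the other at 1357, 855 and 639 (−0.67 and −1.09). The 2 RefSeq probes lie within the spread between probes of a gene of each other, and both go against the probe of the Ensembl transcript with both strains. Whether these probes read different transcripts was not tested. Their positions on the genome do not overlap.

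Of the β chains, *Itgb1*, the common partner in fibronectin, laminin and collagen receptors, was at 19671, 24708 and 14378. Its ratio was 0.33 with CRL1505, negative under spike-in scaling, and −0.45 with CRL1506. A second RefSeq probe gave −0.13 and −0.37. *Itgb5*, which pairs with αv, was at 3394, 1849 and 1872, so that both strains lay below LPS by a like amount (−0.88 and −0.86). *Itgb7* was at 18481, 43882 and 14686 by the repeat-bearing probe, 2.37-fold higher with CRL1505 (1.25), and at 194, 657 and 279 by the probe for NM_013566 (1.76). Both *Itgb7* probes were thus past 2-fold higher with CRL1505, while with CRL1506 they read −0.33 and 0.53.

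Among the ligands, *Icam1*, which codes for the ICAM-1 ligand of LFA-1 and Mac-1 and is induced by LPS through NF-κB, was at 40992, 38329 and 20056. CRL1505 + LPS lay close to LPS (−0.10), and CRL1506 + LPS was 2.04-fold lower (−1.03), past 2-fold in 4 of 8 scalings (−1.23 to −0.88). The dim probe, at 2907, 2404 and 977, gave −0.27 and −1.57, so both *Icam1* probes were past 2-fold lower with CRL1506 and neither was with CRL1505. *Icam4*, the Landsteiner-Wiener blood group protein of red cells, was dim, at 86.9, 98.2 and 48.5 (0.18 and −0.84). Its probe lies 1278 bases from the *Icam1* probe on the same strand of chromosome 9 (mm9 chr9:20834524-20834583), and in both genes CRL1506 + LPS was the lowest of the 3 arrays. *Icam2*, for a ligand of LFA-1, showed another order, at 4195, 2316 and 4207, lower with CRL1505 (−0.86) and level with LPS with CRL1506 (0.00). Its second probe, for ENSMUST00000106809, was well above background only with LPS, on an uneven spot, at 193, 8.77 and 7.17, with bounds of −2.39 and −2.66.

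The remaining cell-cell adhesion molecules include the junctional adhesion molecules JAM-A (*F11r*) and JAM-B (*Jam2*), which line junctions and bind leukocyte integrins. *F11r* was at 433, 800 and 271, above LPS with CRL1505 (0.89) and below it with CRL1506 (−0.67), in every scaling for each. *Jam2* was at 311, 176 and 218, below LPS with both (−0.82 and −0.51). *Cadm1*, a homophilic adhesion molecule, was at 8168, 6600 and 5618 (−0.31 and −0.54). Its second RefSeq probe gave 0.08 and −0.14, and a dim probe of another transcript a bound of −0.91 with CRL1505 and −0.21 with CRL1506. *Alcam*, the ligand of CD6, was at 6103, 7182 and 6806 (0.23 and 0.16, both with a sign that varied with the scaling), its second RefSeq probe gave 0.44 and 0.18, and a dim probe of another transcript was well above background only with CRL1506 (a bound of 1.69). *Pecam1*, the PECAM-1 of endothelium and leukocytes, was dim, at 58.4, 60.5 and 78.7 (0.05 and 0.43).

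*Epcam*, an epithelial adhesion molecule, was at 141 with LPS and 53.6 with CRL1506 (2.63-fold lower, −1.39), and at 15.3, not well above background, with CRL1505 (at least 3.81-fold lower). All 3 levels were low, and no marker of the epithelial list was well above background on any array. *Amigo1*, a leucine-rich repeat adhesion protein, was at 85.1, 28.7 and 78.5, not well above background with CRL1505 (at least 2.30-fold lower, past 2-fold in 4 of 8 scalings), and close to LPS with CRL1506 (−0.12). Its relative *Amigo2* was at 96.0, 67.3 and 133 (−0.51 and 0.47), with uneven spots on the LPS and CRL1506 + LPS arrays.

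In the selectin system, *Selplg*, which codes for the ligand PSGL-1, was at 1248, 983 and 1134 (−0.34 and −0.14). *Cd44*, for the hyaluronan receptor, was at 9670, 16234 and 9777, above LPS with CRL1505 (0.75) and level with it with CRL1506 (0.02). Its other bright probe, at 8679, 11618 and 9243, gave 0.42 and 0.09, while a dim probe, at 47.8, 134 and 165, gave 1.48 and 1.79. All 3 *Cd44* probes were above 0 with CRL1505. *Cd47*, whose product binds SIRPα and restrains phagocytosis, was at 16208, 27648 and 14516 (0.77 and −0.16), and its second probe gave 0.72 and −0.08. The 2 *Cd47* probes therefore differed by less than the spread between probes. *Ninj1*, for ninjurin-1, which ruptures the plasma membrane in lytic cell death, was at 50101, 44587 and 38215 (−0.17 and −0.39), and its second probe gave −0.30 and −0.60.

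The activators inside the cell stayed within 2-fold by their brightest probes. *Tln1*, for talin-1, was at 39923, 42243 and 33256 (0.08 and −0.26), and *Fermt3*, for kindlin-3, at 3667, 2910 and 3305 (−0.33 and −0.15). A dimmer *Tln1* probe, at 622, 322 and 610, gave −0.95 with CRL1505 and −0.03 with CRL1506.

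Of the 14 genes with at least 2 probes measured, the probes lay on the same side of 0 for 7 with CRL1505 and for 11 with CRL1506. The median range over the probes of a gene was 0.48 and 0.27. Probes for RefSeq mRNAs were well above background on all arrays for 40 of 62, and probes for other transcripts for 6 of 26. When only RefSeq mRNA probes without a dinucleotide repeat were read, a rule chosen after seeing the data, 5 of the 39 genes took another probe. *Itgb7* was then the 1 of 30 genes at least 2-fold higher with CRL1505 (8.55% of all genes), and the 2 lower ones stayed bounds (8.58% of all genes). With CRL1506, 1 of 31 was higher (*Itga7*, as a bound, beside 3.29% of all genes) and 4 were lower (3.05% of all genes). Of the 31, 23 were below 0, a count for which the share of all genes under this rule was not computed. The median was −0.39, against −0.08 for all genes. Between the strains, 4 of 31 were higher with CRL1505 (8.02% of all genes) and 1 was lower (5.83% of all genes).

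**Figure D3:**
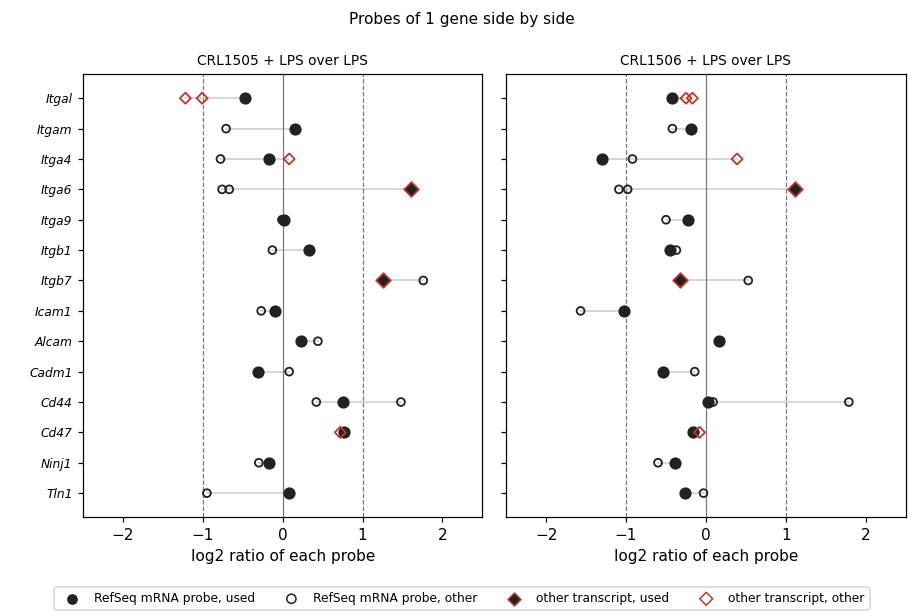
Log2 ratio over the LPS array for every measured probe of the 14 genes with at least 2 such probes; filled symbols are the brightest probes, circles are RefSeq mRNA probes and red-edged diamonds probes of other transcripts. The *Itga6* diamond lies right of 0 and its 2 circles left of it with both strains, while both *Icam1* circles lie left of −1 with CRL1506.

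Set against each other, CRL1505 + LPS was at least 2-fold higher than CRL1506 + LPS for 4 of 31 genes (12.9%, against 9.02% of all genes) and at least 2-fold lower for 1 (3.23%, against 7.47%). The 4 were *Itgb7* (log2 ratio 1.58, 2.99-fold), *F11r* (1.56, 2.95-fold), *Itga4* (1.14, 2.20-fold) and *Icam4* (1.02, 2.03-fold), and the 1 lower was *Amigo1*, at least 2.12-fold. *Itgb7* and *F11r* were past 2-fold in all 8 scalings, *Icam4* in 4 and *Itga4* in 2, with ratios of 0.62 to 1.63 for *Itga4*, whose second RefSeq probe read 0.14. Both *Itgb7* probes were past 2-fold (1.58 and 1.23), and of the *Icam1* probes the bright one read 0.93 and the dim one 1.30. *Cd47* (0.93), *Itgb1* (0.78), *Itga5* (0.77), *Cd44* (0.73) and *Itga3* (0.69) followed in the same direction, each above 0 in all 8 scalings, although the mean over its probes gave −0.14 for *Itga3*. In the other direction *Amigo2* (−0.98) and *Icam2* (−0.86) were below 0 in all 8 scalings and past 2-fold in 3 and 5 of them. In the main setting 20 of 31 genes were above 0 (64.5%, against 51.6% of all genes). In every scaling 11 genes were above 0 and 5 below 0, a count for which the share of all genes was not computed. Of the 5, *Itga7*, *Epcam* and *Amigo1* were bounds, whose sign was set by detection and could not change with the scaling. The median over the genes compared was 0.23, against 0.03 for all genes, and it turned to −0.28 under spike-in scaling. These 2 arrays lay on different slides.

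**Figure D4:**
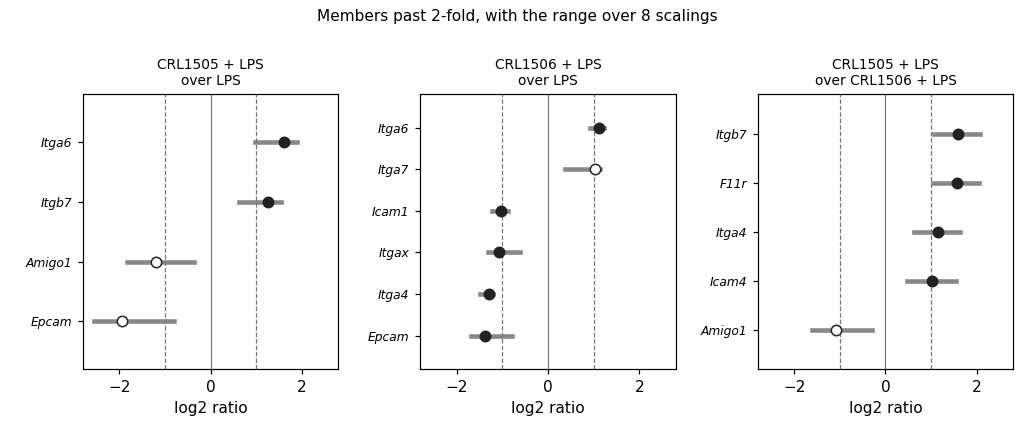
Log2 ratios of the genes past 2-fold in each comparison (points; open points are lower bounds) with the lowest and highest value over 8 scalings (bars); dashed lines mark 2-fold. The bars of *Itga4* with CRL1506 over LPS, and of *Itgb7* and *F11r* between the strains, stay past 2-fold, while those of *Icam1* and *Itgax* cross the line.

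Promoters of 4 genes past 2-fold in a comparison are shown for the 250 bases before the annotated start, from RefSeq on GRCm38.p6, which holds an entry for 27 of the 39 genes. They were chosen after the matches were seen, and the windows of *Itgb7*, *Icam4*, *Epcam* and *Amigo1*, also past 2-fold in a comparison, held 0 matches. They are *Icam1* (plus strand, chr9:21015690-21015939), *Itgax* (plus strand, chr7:128129300-128129549), *F11r* (plus strand, chr1:171437311-171437560) and *Itga4* (plus strand, chr2:79255176-79255425). Capitals mark motif matches.
Icam1: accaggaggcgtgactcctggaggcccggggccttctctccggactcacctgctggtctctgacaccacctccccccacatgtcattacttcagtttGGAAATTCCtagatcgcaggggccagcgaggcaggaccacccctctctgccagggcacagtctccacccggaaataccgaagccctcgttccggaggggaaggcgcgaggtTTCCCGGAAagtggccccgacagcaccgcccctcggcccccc
Itgax: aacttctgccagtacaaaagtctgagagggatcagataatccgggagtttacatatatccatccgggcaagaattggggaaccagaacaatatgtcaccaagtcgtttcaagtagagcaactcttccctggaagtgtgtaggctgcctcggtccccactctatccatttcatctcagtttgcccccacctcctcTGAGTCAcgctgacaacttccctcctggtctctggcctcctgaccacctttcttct
F11r: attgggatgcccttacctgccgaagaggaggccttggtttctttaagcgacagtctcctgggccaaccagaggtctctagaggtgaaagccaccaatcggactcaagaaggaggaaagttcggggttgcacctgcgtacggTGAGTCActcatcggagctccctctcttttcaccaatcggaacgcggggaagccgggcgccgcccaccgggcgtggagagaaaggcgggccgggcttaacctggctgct
Itga4: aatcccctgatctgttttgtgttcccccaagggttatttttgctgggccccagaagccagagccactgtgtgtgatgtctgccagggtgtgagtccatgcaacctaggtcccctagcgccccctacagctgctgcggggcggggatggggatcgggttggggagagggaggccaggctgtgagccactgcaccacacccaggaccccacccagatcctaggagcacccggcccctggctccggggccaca

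The motifs searched, on both strands and in the same window of 27025 promoters, were an NF-κB form (GGAANTTCC, in 0.844% of promoters), a longer NF-κB form (0.337%), PU.1 and ETS (GAGGAAG, 10.4%), STAT (TTCNNNGAA, 7.18%), AP-1 (TGANTCA, 6.87%) and the TATA box (TATAAA, 13.0%). None of the marked matches overlap. The *Icam1* promoter held the NF-κB form GGAAATTCC from −153 to −145 and the STAT motif TTCCCGGAA from −42 to −34, and it was the 1 of the 27 promoters with either motif; the longer NF-κB form was found in 0 of 27. The AP-1 motif was found in 3 of 27, in *F11r* from −109 to −103, in *Itgax* from −56 to −50 and in *Selp*, and the PU.1 and ETS motif in 4 of 27 (*Alcam*, *Cd44*, *Itgam* and *Itgav*). The TATA box was found in 0 of 27. The *Itga4* window held no match. A match describes the sequence and not binding.

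The partners of these genes gave the surroundings, as 3 lists. Of the cytoplasmic machinery linked to integrins, 36 of 40 genes were compared; with CRL1505, 1 was at least 2-fold higher (2.78%, against 9.93% of all genes) and 5 were at least 2-fold lower (13.9%, against 8.41%), 2 of the latter as bounds. With CRL1506, 0 were higher (against 5.67%) and 2 lower (5.56%, against 3.53%). *Cytip*, which binds cytohesin-1 and limits LFA-1 adhesion, was lower with both strains (−2.82 and −3.02). Between the strains, 3 of 36 were at least 2-fold higher with CRL1505 than with CRL1506 (8.33%, against 9.02% of all genes). Another 2 were at least 2-fold lower (5.56%, against 7.47%), 1 of them as a bound. Among these, *Vcl*, for vinculin, was higher (1.44) and *Parvb* was lower (−1.02). Of other adhesion receptors, 29 genes were compared with CRL1505, with 5 at least 2-fold higher and 5 lower (17.2% each, against 9.93% and 8.41% of all genes), 2 and 1 of them as bounds. With CRL1506, 31 were compared, with 0 higher (against 5.67%) and 2 lower (6.45%, against 3.53%), 1 as a bound. *Cd93*, a receptor of myeloid and endothelial cells, was lower with both (−1.88 and −1.68).

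Of the extracellular ligands, 20 of 35 genes were compared with each strain, with 5 at least 2-fold higher (25.0%, against 9.93% of all genes) and 3 lower (15.0%, against 8.41%) with CRL1505. Of these, 3 of the higher (*Thbs1*, *Col4a1* and *Ctgf*, named here after their values were seen) cleared the background only on the CRL1505 + LPS array, and 1 of the lower was a bound. With CRL1506, 2 of the 20 were higher and 2 lower, against 5.67% and 3.53% of all genes, 1 of each as a bound. *Fn1*, for fibronectin, the ligand of the α4 and α5 integrins, was higher with both strains (1.23 and 1.49), while *Itga5* read −0.09 and −0.86. *Tgfbi*, a matrix protein bound by integrins, was lower with CRL1505 (−2.37) and read −0.86 with CRL1506. The median log2 ratio of the machinery was 0.14 with CRL1505 and −0.15 with CRL1506, that of other receptors −0.17 and −0.26, and that of extracellular ligands −0.04 and −0.29, beside 0.01 and −0.06 for all genes.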

How the data were processed

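RNA of RAW 264.7 cells was measured on 3 arrays, 1 for each condition. The authors deposited, for each array, spot intensities of Feature Extraction 12.0.3.1 (per the file headers), background-subtracted and not normalized between arrays, with probe positions on mm9. They also deposited a table of log2 values normalized between arrays, by a setting not given in the sources used here. The submitters' processing notes name limma.

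Here log2 intensities were set, array by array, to a common 75th percentile over gene spots, outlier spots were dropped, and a gene took its brightest probe. Probes well above background on neither array were left out. A 2-fold threshold was used, without p-values, since no condition had replicates; the number of arrays limited the precision. All 39 genes are accounted for, and those well above background on at least 1 array are given with the level of their brightest probe on each array and the ratios over LPS. Context lists are summarised, and a few genes of each are named, chosen with their values known. Printed probes were chosen after their values were seen. The members and lists were chosen with earlier results of these data known. Alternatives were another scaling (by the median, quantile normalization, cyclic loess, detected probes, spike-in probes or the deposited table), normexp with an offset of 50, other rules for outlier, uneven or dim spots, removal of a GC trend over 12 bins, averaging all probes that a gene has, and thresholds of 1.5-fold and 4-fold. A rule that kept only RefSeq mRNA probes without a dinucleotide repeat was added after seeing the data. Python 3.11.15, pandas 2.3.3, numpy 2.4.6, matplotlib 3.10.9, R 4.3.3 and limma 3.58.1 were used, and the steps were tested on simulated data.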

Additional observations from a re-analysis of the deposited data

How the results depend on the processing

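No array was left out, since each condition has 1, and strain and slide cannot be told apart for CRL1505 + LPS. No paired analysis was possible because every condition has 1 array. Signal over background limits *Itga7* to bounds, and *Epcam* and *Amigo1* to bounds in comparisons with CRL1505 + LPS, and 8 further genes to no ratio. The cause of the following changes was not tested.

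For CRL1505 + LPS over LPS, the 2 genes at least 2-fold higher became 6 under the median shift, 0 under spike-in scaling, 1 when probes of a gene were averaged, 1 with RefSeq mRNA probes, and 6 or 0 at thresholds of 1.5-fold or 4-fold. The 2 genes at least 2-fold lower became 1 under the median shift, quantile normalization or the deposited table, 8 under spike-in scaling, 0 with normexp or when every array had to be well above background, 5 with no filter on dim probes, and 6 or 0 at 1.5-fold or 4-fold. The median log2 ratio of −0.09 became 0.20 under the median shift and −0.73 under spike-in scaling.

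For CRL1506 + LPS over LPS, the 2 genes higher became 0 under the median shift or spike-in scaling and at 4-fold, and 1 under quantile normalization, cyclic loess, normexp, the deposited table, a signal well above background required on every array, and RefSeq mRNA probes. The 4 genes lower became 7 under the median shift, 2 with the 75th percentile over detected probes or with normexp, 1 in the deposited table, and 8 or 0 at 1.5-fold or 4-fold.

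For CRL1505 + LPS over CRL1506 + LPS, the 4 genes higher became 11 under the median shift, 2 with the 75th percentile over detected probes, spike-in scaling or the deposited table, and 10 or 0 at 1.5-fold or 4-fold. The 1 gene lower became 0 under the median shift, normexp, a signal well above background required on every array and the mean over probes, 3 with the 75th percentile over detected probes, 5 under spike-in scaling or with no filter on dim probes, 2 with outlier spots kept, and 4 or 0 at 1.5-fold or 4-fold. The median log2 ratio of 0.23 became 0.73 under the median shift and −0.28 under spike-in scaling.

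Rules for outlier, uneven or dim spots cannot move the value of a gene that has no such spot, so part of the following count was fixed in advance. Of 1276 values of single genes under an alternative, 1060 moved by less than the spread between probes of a gene, 211 moved by more, and 5 of genes past 2-fold changed sign. The last were *Itga4* with the mean over its probes (0.29 for CRL1506 + LPS over LPS and −0.08 for CRL1505 + LPS over CRL1506 + LPS), *Itga6* with the mean over its probes (−0.32 for CRL1506 + LPS over LPS), and *Itga6* with RefSeq mRNA probes (−0.76 for CRL1505 + LPS and −0.98 for CRL1506 + LPS).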
